A study of Homo sapiens with 10 samples.

Results

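The subject is a set of 9 genes for proteins that mucosal epithelia secrete in defence of their surface: REG1A, REG1B, REG3A, REG4, PLA2G2A, LCN2, DMBT1, PIGR and LYZ. Each was found by an exact match of its symbol in a table of 58870 genes, so 9 of 58870 genes are described. The set was chosen by function, but it was built around the swings of REG1A and PLA2G2A between guides and between library letters. The levels of those 2 genes are therefore given as a description with no test, and p-values are given for the other members only. The cells were LS180, an established human colorectal cancer line, grown in DMEM with fetal bovine serum and given no drug. All groups carried stable CRISPR interference, in which a guide RNA brings a catalytically dead Cas9, usually fused to a repressor, to a promoter. The lines sg1, sg2 and sg3 carried guides against RNASE1, which encodes a secreted ribonuclease, and the lines NTC1 and NTC2 carried non-targeting guides. Each of the 5 lines had 2 mRNA libraries, lettered B and A, which gave 6 guide libraries and 4 NTC libraries. The labels do not state what the letters stand for, whether B and A came from separate cultures, or whether a line is 1 clone. Where single libraries were fitted (each guide line, NTC2 against NTC1, and the letters), p-values thus measure a spread that may be technical. For guide against NTC lines counts were summed per line, so p-values there measure the spread between lines. The series asks what RNASE1 does inside the cell to gene expression.

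REG proteins are small secreted C-type lectins of the gut and pancreas. Human REG3A kills Gram-positive bacteria by binding peptidoglycan, and REG1A and REG1B, close copies of each other, are made in the exocrine pancreas and in crypts of inflamed or neoplastic colon. PLA2G2A is the secreted phospholipase A2 of Paneth cells and hydrolyses bacterial membrane phospholipids. LCN2, lipocalin 2, withholds iron from bacteria by binding their siderophores, LYZ, lysozyme, cuts peptidoglycan, DMBT1 is a mucin-like scavenger receptor that aggregates bacteria, and PIGR carries polymeric immunoglobulin across the epithelium and releases it as secretory IgA. In the intestine several of these genes are known as targets of STAT3 and NF-kB signalling, and PLA2G2A, LYZ and the defensins mark Paneth cells.

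The promoters of the REG genes are shown first because the 4 genes differed widely in level while sharing a core element. RefSeq promoter entries (GRCh38.p14) matched 8 of the 9 genes. Each line below gives 30 bases on the gene's strand, from 35 to 6 bases before the RefSeq start, with the motif TATAAA in capitals.
REG1A: atcctgaTATAAAgctcctacagctacctg
REG1B: ccctgaTATAAAgctcctactctgtctgac
REG3A: tcctctTATAAAatcccactctttcctgac
REG4: aagaTATAAAagctccagaaacgttgactg
DMBT1: ggtaccTATAAAtgtccaggattttctatt
The windows lie at chr2:79120453-79120482 for REG1A, chr2:79087999-79088028 for REG1B, chr2:79159759-79159788 for REG3A, chr1:119811466-119811495 for REG4 and chr10:122560719-122560748 for DMBT1. REG1A and DMBT1 are on the plus strand here and at REG1B, REG3A and REG4 the minus strand is read. For REG1A, REG4 and DMBT1 the 250 bases before the RefSeq start overlap an exon of a coding transcript of the same gene in GENCODE release 29. Some transcripts of these genes thus start earlier. In this window on the gene's strand TATAAA stood in 5 of the 8 matched genes, and in 700 of 27305 promoters (2.56%). The motif began 28 bases before the start in REG1A, 29 in REG1B, REG3A and DMBT1, and 31 in REG4. The 250 bases before the start of REG1A and REG1B aligned over 236 bases, of which 75.8% were identical. The match is a description of letters, and the 5 genes with it ranged from the near absent to the abundant.

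PLA2G2A had no TATAAA in that window at any of its RefSeq starts. Its sequence is shown because it had the clearest step between letters, and because the same window gives a contrast to the REG genes. At its other RefSeq starts the 250 bases overlap exons of its coding transcripts, and these are not shown. The 250 bases before the start at 19980434, chr1:19980435-19980684 on the minus strand of GRCh38.p14, read as follows.
PLA2G2A: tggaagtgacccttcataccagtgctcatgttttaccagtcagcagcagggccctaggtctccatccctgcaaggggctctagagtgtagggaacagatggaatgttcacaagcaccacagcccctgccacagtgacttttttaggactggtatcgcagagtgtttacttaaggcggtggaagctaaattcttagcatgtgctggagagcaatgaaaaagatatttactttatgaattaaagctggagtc
No capitals appear because none of the 4 motifs searched on both strands was found in these letters. These were TATAAA, the STAT element TTCNNNGAA, the TCF/LEF element CTTTGAT and the GATA element AGATAA, which stood in 11.1%, 6.78%, 2.28% and 9.37% of 27305 promoters over the same length.

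The deposited counts totalled 39026605 to 45050991 per library, and levels are given in CPM, counts scaled by library size after TMM normalization. RNASE1, the targeted gene, held 1.02 to 3.75 CPM in the guide libraries and 16.4 to 23.7 CPM in the NTC libraries, with no overlap. Of 10 markers of colorectal epithelium, 10 were at or above 1 CPM. Of 10 monocyte and macrophage markers, 5 (PTPRC, AIF1, CD163, FCGR3A and TYROBP) were at 0 in every library, and only CD68 averaged 1 CPM or more (8.39 CPM), with CD14 at 0.641 to 1.57 CPM. The 8 neutrophil markers summed to 0.179 to 0.436 CPM in guide libraries and 0.0712 to 0.285 CPM in NTC libraries, and the 10 pancreatic acinar markers to 0.0701 to 0.305 CPM and 0.0476 to 0.262 CPM in the same order. For fibroblasts the 6 markers summed to 4.04 to 5.32 CPM in guide libraries and 3.74 to 4.58 CPM in NTC libraries. For plasma and B cells the 6 markers summed to 312 to 346 CPM in guide libraries and 309 to 328 CPM in NTC libraries, MS4A1 was at 0, and SDC1, which epithelial cells also express, was the 1 gene at or above 1 CPM. LCN2 and LYZ, which neutrophils and macrophages also make, were measured in libraries with these marker levels; the part of such cells in their counts was not tested.

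Per kilobase of exon, 5 genes were well measured, 1 was low and 3 were at the edge of detection. PLA2G2A stood at 139 ± 17.1 CPM per kb in guide lines and 155 ± 11.7 in NTC lines (SD, n = 3 and 2 lines). PIGR stood at 129.7 ± 16.4 CPM per kb in guide lines and 107 ± 6.23 in NTC lines, so in the guide lines these neighbours in the order lay within each other's spread. REG4 followed with 33.1 ± 2.08 CPM per kb in guide lines and 33.5 ± 0.379 in NTC lines. LYZ came next with 18.9 ± 1.24 CPM per kb in guide lines and 20.1 ± 0.709 in NTC lines, and LCN2 held 7.55 ± 0.242 and 6.68 ± 0.029 CPM per kb in those groups. REG1A was far below them, at 0.159 ± 0.185 CPM per kb in guide lines and 0.748 ± 0.223 in NTC lines. REG1B, DMBT1 and REG3A had 12, 11 and 1 counts over all 10 libraries, and no order among them can be read.

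REG1A, a lectin gene at chromosome 2, 79120362 to 79123419 on the plus strand of GRCh38 (GENCODE release 29), was held at lower levels in the guide lines, and unevenly so. Library B and library A of sg1 had 0.205 and 0.0484 CPM (8 and 2 counts). Those of sg2 had 0 and 0.112 CPM (0 and 5 counts), and 0 counts in sg2 B allows up to 0.0703 CPM at 3 counts. In sg3 they had 1.05 and 0.234 CPM (44 and 10 counts). The guide lines thus spanned from no read to a level within the NTC range, and the sg3 B library held most of the reads. Library B and library A of NTC1 had 1.20 and 0.832 CPM (55 and 35 counts), and those of NTC2 had 1.47 and 1.65 CPM (62 and 70 counts). Over all libraries the groups overlapped, because sg3 B lay above NTC1 A. Within letter B and within letter A they did not overlap.

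**Figure D1:**
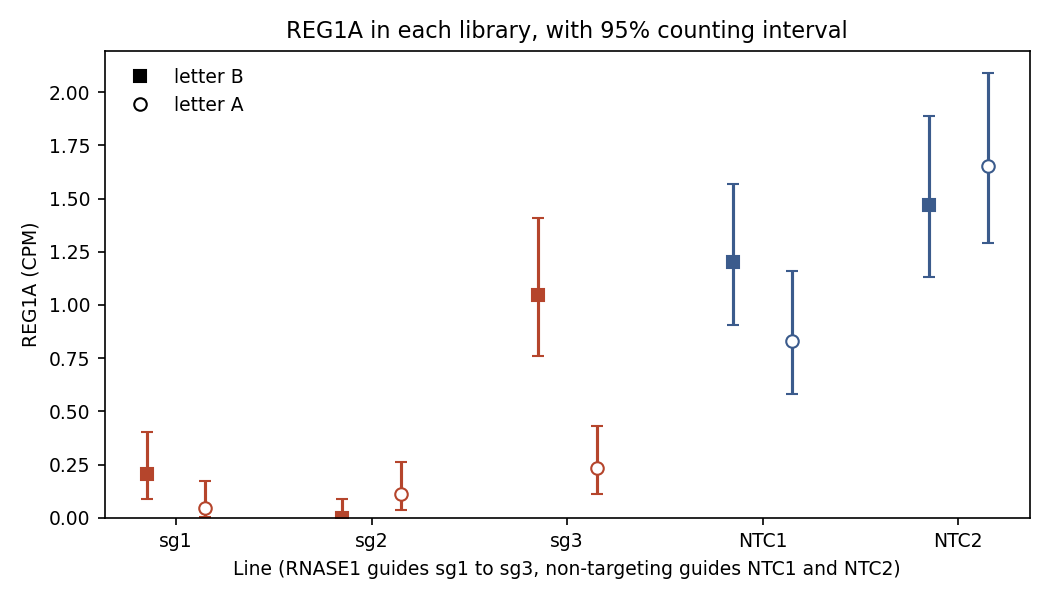
REG1A in CPM on a linear axis for each line, with letter B as filled squares and letter A as open circles, guide lines in red and NTC lines in blue, and bars for the 95% Poisson interval of the count. The sg1 and sg2 libraries lie at or below 0.205 CPM, sg3 B at 1.05 CPM lies among the NTC libraries, and those run from 0.832 to 1.65 CPM.

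Averaged over lines, REG1A was at 0.275 ± 0.320 CPM in guide lines and 1.29 ± 0.385 CPM in NTC lines (SD, n = 3 and 2 lines). REG1A was chosen for its swing, which the SE values below take no account of, so none of them is a test. The fitted log2 fold change was -2.23 (SE 0.57). By line it was -3.31 (SE 0.80) for sg1, -4.40 (SE 0.90) for sg2 and -0.98 (SE 0.61) for sg3, each against the mean of the NTC lines, which the 3 comparisons share. The sg1 value was -4.62 without sg1 B and -2.61 without sg1 A, and the sg3 value -2.42 without sg3 B and -0.27 without sg3 A. For sg2 it was -3.47 without sg2 B, and without sg2 A the library left had 0 counts, so that no fold is given. Between the controls, NTC2 against NTC1, it was 0.61 (SE 0.65). The value moved with the libraries included: it was -1.66 with letter B alone, -3.21 with letter A alone and -3.83 without the line sg3. In bulk RNA, fewer cells making a transcript and less of it per cell cannot be told apart, and at 2 to 70 counts where reads were found the Poisson intervals, which cover counting error only, were wide: 0.762 to 1.41 CPM for sg3 B and 0.580 to 1.16 CPM for NTC1 A.

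REG1B, the close copy of REG1A at 79085030 to 79088019 on the minus strand of chromosome 2, had 3 counts in the 6 guide libraries and 9 in the 4 NTC libraries. Its highest library was NTC2 A, with an estimated 5.07 counts, beside 69.93 for REG1A there. These estimates were not whole, because RSEM divides reads that fit several genes. The longest protein-coding transcripts of REG1A and REG1B (808 and 767 bases) were 87.2% identical over 767 aligned bases, and 12 of 1747 windows of 50 bases in REG1A transcripts occur in REG1B. The split of such reads between the copies is uncertain. REG3A, the antibacterial lectin at 79157003 to 79159753 of the same chromosome, had 0 counts in guide libraries and 1 count in NTC libraries (NTC1 A). The locus was silent otherwise: the pseudogene REG1CP beside REG1A and the lectin gene REG3G beside REG1B both had 0 counts, and CTNNA2, an alpha catenin gene beyond REG3A, had 10 in all. REG1A was the 1 gene of this cluster with more than 12 counts.

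REG4, the REG gene marking enteroendocrine and goblet-type cells and mucinous tumours of the gut, lies apart on chromosome 1 at 119794018 to 119811660, minus strand, and was at a like level in guide and NTC lines. Its level was 115.5 ± 7.27 CPM in guide lines and 117 ± 1.32 CPM in NTC lines (SD, n = 3 and 2 lines). The lowest library was sg2 B at 95.3 CPM, and the other 9 ran from 110.1 to 125.8 CPM, with guide and NTC libraries mixed. The log2 fold change of guide against NTC lines was -0.02 (SE 0.04, 95% interval -0.11 to 0.08), with an adjusted p = 0.963 by the quasi-likelihood test of edgeR.

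PLA2G2A, on chromosome 1 at 19975431 to 19980416, minus strand, was high in every library and separated the letters rather than the guides. Libraries B and A held 256 and 183 CPM in sg1, 252 and 179 CPM in sg2, and 325 and 209.9 CPM in sg3. The NTC1 libraries held 299.6 and 196 CPM, and the NTC2 libraries 324 and 228 CPM. Each B library was above each A library, and at either letter the sg3 library lay between or above the NTC libraries while sg1 and sg2 lay below both. Line means were 219.6, 215 and 267 CPM in sg1, sg2 and sg3, and 248 and 276 CPM in NTC1 and NTC2. The log2 fold change of guide against NTC lines was -0.17 (SE 0.07), and it was -0.17 with letter B alone and -0.16 with letter A alone. On leaving out 1 library it ran from -0.30 without NTC1 A to -0.02 without NTC1 B. Against the shared NTC mean, sg1 stood at -0.25 (SE 0.25), sg2 at -0.28 (SE 0.25) and sg3 at 0.03 (SE 0.25), and NTC2 against NTC1 at 0.15 (SE 0.29). These fits have no term for the letter, so the step between letters is part of each SE. Leaving out 1 library leaves its line with 1 letter, so the step between letters enters the value. Such fits ran from -0.52 to -0.03 in sg1, from -0.55 to -0.05 in sg2 and from -0.32 to 0.31 in sg3. The neighbouring genes did not share its level: PLA2G5 had 1 count over all libraries, PLA2G2E 34, PLA2G2D 6 and the small RNA pseudogene RN7SL304P 0.

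LCN2, the siderophore-binding lipocalin on chromosome 9 (128149071 to 128153455, plus strand), held 12.06 ± 0.386 CPM in guide lines and 10.68 ± 0.0463 CPM in NTC lines (SD, n = 3 and 2 lines). For letter B its libraries had 12.8, 13.2 and 13.2 CPM in sg1, sg2 and sg3, against 12 and 11.3 CPM in NTC1 and NTC2. For letter A they had 10.6, 11.7 and 10.8 CPM in the guide lines, against 9.42 and 10.03 CPM in the NTC lines. All 3 guide lines were above both NTC lines at each letter. The log2 fold change was 0.17 (SE 0.06, 95% interval 0.05 to 0.29) and missed the threshold (edgeR, adjusted p = 0.438). It was 0.09 without NTC1 A and 0.25 without NTC1 B. Of 6 members fitted, 2 (REG1A and LCN2) had guide and NTC lines apart within both letters in the same direction, as did 658 of 17335 genes tested (3.8%). REG1A was chosen for its swing, so its place in that count supports nothing.

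PIGR, the transporter of secretory immunoglobulin on chromosome 1 (206928518 to 206946466, minus strand), had the highest CPM of the set in every library. Libraries B and A held 504 and 526 CPM in sg1, 756 and 543 CPM in sg2, and 581 and 496 CPM in sg3, against 519 and 383 CPM for NTC1 and 504 and 475 CPM for NTC2. The guide libraries were above the NTC libraries within letter A, and at letter B sg1 was just below both NTC libraries while sg2 and sg3 were above them. sg2 B was the highest library. The means were 568 ± 71.9 CPM in guide lines and 470.2 ± 27.3 CPM in NTC lines (SD, n = 3 and 2 lines). The log2 fold change was 0.27 (SE 0.07, 95% interval 0.11 to 0.42; edgeR, adjusted p = 0.328), and by line 0.13 (SE 0.14) for sg1, 0.47 (SE 0.14) for sg2 and 0.20 (SE 0.14) for sg3, none of which passed (each edgeR adjusted p = 1). The fits by line have no term for the letter, so the step between letters is part of each SE. With the letter as a replicate block the sg2 value was 0.46 (edgeR, adjusted p = 0.0932). Without sg2 B the sg2 value was 0.20 and without sg2 A it was 0.69. Over guide against NTC lines, PIGR ran from 0.17 without NTC1 A to 0.38 without NTC1 B, and was 0.16 without line sg2. With no filter on low counts it passed in guide against NTC lines (edgeR, adjusted p = 2.24e-16) and in sg2 (edgeR, adjusted p = 6.87e-10). That setting also called 57 genes in NTC2 against NTC1, against 0 with the filter, and the cause was not tested. In guide against NTC lines PIGR did not pass with DESeq2 (adjusted p = 0.94). Nor did it at a mean of 5 CPM or more (edgeR, adjusted p = 0.16).

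LYZ, the lysozyme gene on chromosome 12 (69348341 to 69354234, plus strand), held 33.3 ± 2.19 CPM in guide lines and 35.4 ± 1.25 CPM in NTC lines (SD, n = 3 and 2 lines). Its libraries ran from 27.2 CPM (sg2 B) to 36.8 CPM in guide lines and from 33.4 to 37.4 CPM in NTC lines, so the groups overlapped. The log2 fold change was -0.09 (SE 0.05; edgeR, adjusted p = 0.717). The library protocol does not mark strand, and exons of the antisense gene AC020656.1 overlap exons of LYZ. That antisense gene had only 13 counts in all, beside 14512 for LYZ. DMBT1, the bacteria-aggregating scavenger receptor on chromosome 10 (122560665 to 122643736, plus strand), had 3 counts in guide libraries and 8 in NTC libraries, and 5 of 10 libraries had any.

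**Figure D2:**
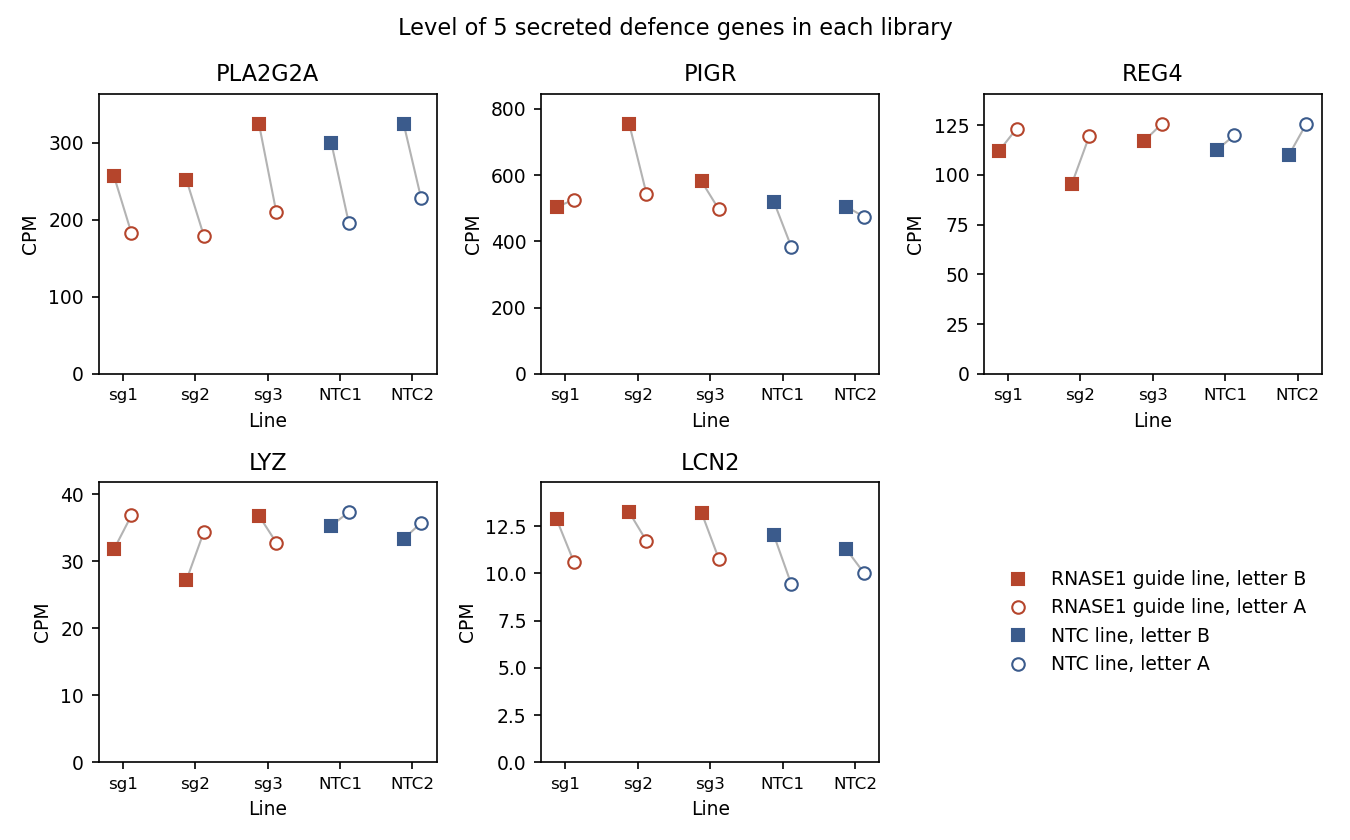
Levels of PLA2G2A, PIGR, REG4, LYZ and LCN2 in CPM on linear axes from 0 for each line, with letter B as filled squares and letter A as open circles, joined within a line, and guide lines in red left of NTC lines in blue. Letter B lies above letter A in each line for PLA2G2A and LCN2 and below it in each line for REG4, and sg2 B reaches 756 CPM for PIGR.

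Among the 7 members open to a test, none was called between guide and NTC lines. The exception was PIGR with no filter on low counts, as given above. In guide against NTC lines 4 were fitted and 0 were called, with 0.0231% of 17335 genes called in all, among them RNASE1. REG1B, REG3A and DMBT1 were below the filter on low counts and were not fitted in any comparison, and 2 of the 4 fitted genes (LCN2 and PIGR) were at an unadjusted p under 0.05, against 7.98% of all genes tested. For each of sg1, sg2 and sg3 against the NTC lines 0 of 4 were called, with 0.00609% of 16411 genes called, in each case RNASE1 alone. Of the 4, PIGR in sg2 was at an unadjusted p under 0.05, and none was in sg1 or sg3. Over all genes tested the share at that level was 2.3% in sg1, 1.82% in sg2 and 2.16% in sg3. The fits by line have no term for the letter, so the step between letters is part of each SE. For NTC2 against NTC1 0 of 4 were called, with 0% of genes called and 282 genes at an unadjusted p under 0.05. DESeq2 also called 0 of the 7 in these 5 comparisons.

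**Figure D3:**
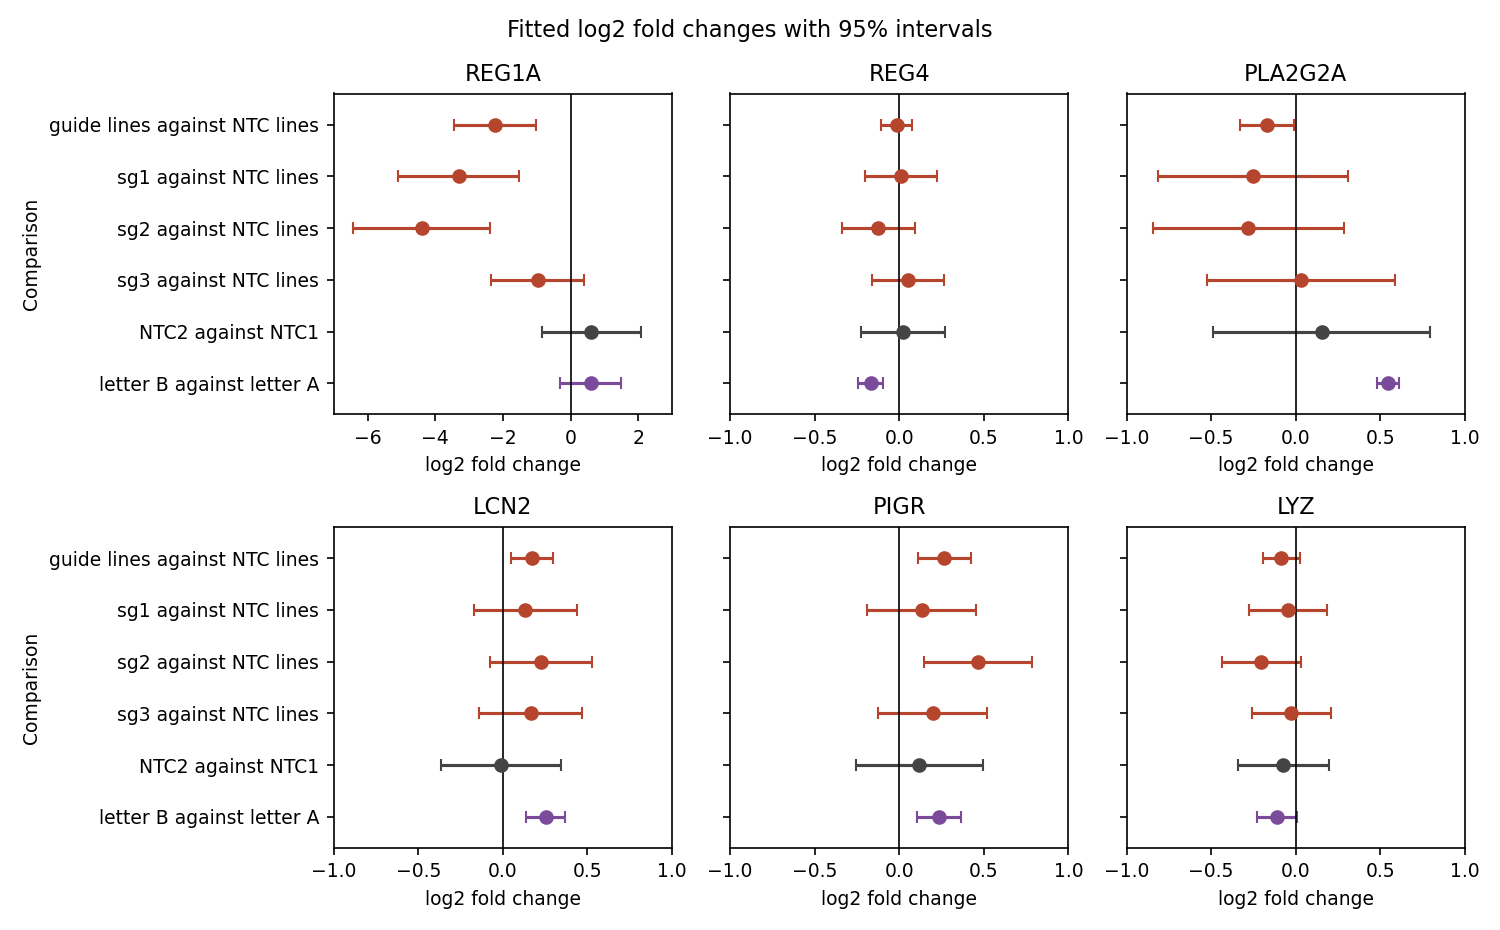
Fitted log2 fold changes (points) with 95% intervals (bars) for the 6 fitted genes in 6 comparisons, with guide comparisons in red, NTC2 against NTC1 in grey and letter B against letter A in purple. The REG1A axis spans a wider range than the others. REG1A and PLA2G2A were chosen for their swings, which their bars take no account of, so those bars are no test.

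Of 140 other genes listed for REG biology, secreted phospholipases, antimicrobial proteins, mucosal oxidases, STAT3 and IL-22 signalling, IL-17 and NF-kB signalling, LCN2 and PIGR partners and Paneth regulators, 94 were fitted in guide against NTC lines. None was called by edgeR or by DESeq2, and 14 (14.9%) were at an unadjusted p under 0.05, against 7.98% of all genes tested. List medians lay between -0.03 and 0.04 on the log2 scale, against 0.00 over all genes, apart from the 4 fitted phospholipase genes at 0.28. Of these, PLA2G10 was at 0.28 and 0.196 CPM in guide and NTC lines and PLA2R1 at 0.448 and 0.249 CPM, both low. PLA2G3 was at 22 and 21.1 CPM and PLA2G12A at 60.7 and 62.6 CPM in the same order. Abundant genes were close to level: LGALS4, a secreted galectin, was at 0.01 (SE 0.03), IRAK1, a kinase of Toll-like receptor signalling, at 0.03 (SE 0.03), JAK1 at 0.02 (SE 0.03), and EPHB3, an ephrin receptor that positions Paneth cells, at -0.02 (SE 0.03). The Paneth defensins DEFA5 and DEFA6 were at -0.58 (SE 0.20, adjusted p = 0.459, edgeR) and -0.50 (SE 0.17, adjusted p = 0.468, edgeR). In the comparisons of sg1, sg2 and sg3 with the NTC lines 88 were fitted and edgeR and DESeq2 called 0 in each, with 2, 2 and 3 at an unadjusted p under 0.05. For NTC2 against NTC1 both tools called 0 of 88, and 0 were at an unadjusted p under 0.05.

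More of the set was called between the letters than between guides and controls. So it was over all genes tested (29.6% of 16411 against 0.0231% of 17335). The comparisons differ in design, so these counts do not compare the size of the differences. For PLA2G2A, B libraries averaged 291 ± 35.5 CPM and A libraries 199 ± 20 CPM (SD, n = 5 each), with B running from 252 to 325 CPM and A from 179 to 228 CPM. PLA2G2A was chosen for its swing, so its values are a description with no test. The log2 fold change, B against A with line as a term, was 0.55 (SE 0.03). It was higher in B in 5 of 5 lines, by 0.49 in sg1, 0.49 in sg2, 0.63 in sg3, 0.61 in NTC1 and 0.51 in NTC2. With guide lines alone the log2 fold change was 0.54, and it was 0.56 with NTC lines alone. REG1A was at 0.59 (SE 0.42), with B higher in 3 lines and A higher in 2. At its 0 to 70 counts per library, a step like that of PLA2G2A can be neither shown nor excluded.

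Of the 7 members open to a test, 4 were fitted in letter B against letter A, 2 rose and 1 fell, with 29.6% of 16411 genes called (2392 up and 2458 down). LCN2 rose to 12.5 ± 0.862 CPM in B, against 10.5 ± 0.855 CPM in A (SD, n = 5 each), a log2 fold change of 0.25 (SE 0.05; edgeR, adjusted p = 0.00286), in 5 of 5 lines. PIGR rose to 573 ± 107 CPM in B, against 485 ± 62.6 CPM in A, a log2 fold change of 0.23 (SE 0.06; edgeR, adjusted p = 0.0102), in 4 of 5 lines. The PIGR call was lost with DESeq2 (adjusted p = 0.0874), without line NTC1 (edgeR, adjusted p = 0.0620), with no line term (edgeR, adjusted p = 0.0866) and in guide lines alone (edgeR, adjusted p = 0.0636). REG4 fell to 109.4 ± 8.29 CPM in B, against 123 ± 3.08 CPM in A, a log2 fold change of -0.17 (SE 0.03; edgeR, adjusted p = 0.00237), in 5 of 5 lines. In the 2 NTC lines alone LCN2 (0.26, adjusted p = 0.0759, edgeR) and REG4 (-0.14, adjusted p = 0.0621, edgeR) kept their direction and missed the threshold. LYZ was at -0.11 (SE 0.05; edgeR, adjusted p = 0.155), lower in B in 4 of 5 lines, and passed without line sg3 (-0.18, adjusted p = 0.0199, edgeR). Of the 4 fitted members open to a test, REG4 alone had B and A libraries that did not overlap, as did 19.2% of all genes tested. Those of PLA2G2A did not overlap either, but it was chosen for its swing, so that supports nothing.

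Paneth-type defensins moved with PLA2G2A. DEFA5 rose to 3.31 ± 1.09 CPM in B, against 1.24 ± 0.307 CPM in A (SD, n = 5 each; log2 fold change 1.39, SE 0.14; edgeR, adjusted p = 2.15e-05). DEFA6 rose to 3.89 ± 1.02 CPM in B, against 1.16 ± 0.396 CPM in A (1.75, SE 0.15; edgeR, adjusted p = 6.28e-06). Each was higher in B in 5 of 5 lines. LYZ, also a Paneth product, was lower in B in 4 of 5 lines. Of 20 other secreted defence genes fitted, of 44 listed, 4 rose and 3 fell (35%, against 29.6% of all genes tested), with a median of 0.00, the same as over all genes. Among those that fell were the galectin LGALS3 (-0.23, SE 0.03) and the lectin-like ZG16B (-0.26, SE 0.04).

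**Figure D4:**
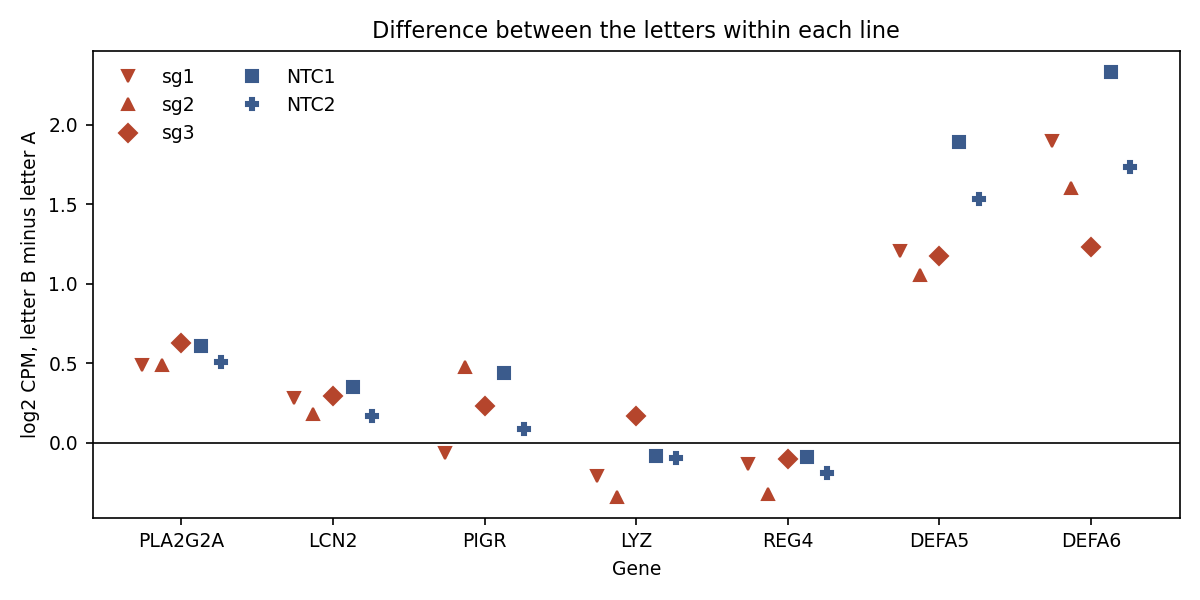
Difference in log2 CPM between letter B and letter A within each line for 5 members and for DEFA5 and DEFA6, with guide lines in red and NTC lines in blue. All 5 lines lie above 0 for PLA2G2A, LCN2, DEFA5 and DEFA6 and below 0 for REG4, and the lines of PIGR and LYZ lie on both sides.

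Regulators and inputs of these genes also differed between the letters, at shares that varied by list, against 29.6% of all genes tested. Of 17 fitted Paneth and secretory regulators, of 20 listed, 9 rose and 2 fell (64.7%, median 0.11). Those that rose included ATOH1, the factor that commits cells to the secretory fate (0.44, SE 0.05, adjusted p = 6.87e-05, edgeR), and EPHB2, a receptor of the crypt base (0.23, SE 0.02). The intestinal factors CDX2 (0.17, SE 0.03) and HNF4A (0.17, SE 0.03) rose too. XBP1 was lower in B, at 171 ± 7.6 CPM against 185 ± 2.96 CPM in A, and so was CDX1, at 221 ± 9.16 against 235 ± 7.59 CPM (SD, n = 5 each). DESeq2 called both. Of 22 fitted IL-17 and NF-kB genes, of 23 listed, 2 rose and 8 fell (45.5%, median -0.06). The RNA sensor TLR3 (-0.38, SE 0.06), the NF-kB inhibitor NFKBIA (-0.22, SE 0.04) and the receptor subunit IL17RC (-0.24, SE 0.05) fell, and IL17RE rose (0.24, SE 0.06). Of 17 fitted STAT3 and IL-22 genes, of 23 listed, 1 rose and 4 fell (29.4%, near the share of all genes tested, median -0.03). The fucosyltransferase FUT2 rose (0.16, SE 0.05), and IL20RA (-0.13, SE 0.03), IL10RB (-0.20, SE 0.06), a subunit of the IL-22 receptor, and EXTL3, a glycosyltransferase proposed as a REG receptor (-0.12, SE 0.03), fell. Of 4 fitted mucosal enzymes, of 9 listed, 2 fell (50%, median -0.27), the oxidase NOX1 (-0.32, SE 0.07) and its organiser NOXO1 (-0.22, SE 0.07). Of 4 fitted partners, of 9 listed, 2 fell (50%, median -0.07), MAL2, a protein of transcytosis (-0.19, SE 0.03), and RAB11A, of recycling endosomes (-0.11, SE 0.03). Of 4 fitted phospholipase genes, of 11 listed, none was called by edgeR or DESeq2 and 0 were at an unadjusted p under 0.05 (median 0.07). PLA2G12A, the most abundant of them at 61.4 CPM, was at -0.04 (SE 0.03). Over the 88 fitted genes 16 rose and 21 fell, 42% in all, against 29.6% of all genes tested. DESeq2 called 31 of these genes and 2 of the 7 members, LCN2 and REG4.

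The letters also differed in epithelial markers. The 10 colorectal epithelial markers summed to 5750 to 6770 CPM in B and 7120 to 7410 CPM in A. Of the 10, 3 rose and 3 fell (60%, against 29.6% of all genes tested), so the lower sum in B was not a fall of every marker. Keratin KRT8 was at 2540 ± 284 CPM in B and 3280 ± 80.0 CPM in A, and KRT18 at 1350 ± 98.6 CPM in B and 1750 ± 46.8 CPM in A (SD, n = 5 each). These were the most abundant markers and weigh most in the sum. VIL1 (295 CPM in B, 264 CPM in A) and CDX2 (167 and 148 CPM) went the other way. RNASE1 rose in B, by 0.31 on the log2 scale (SE 0.08; edgeR, adjusted p = 0.0108). Their part in the differences of the secreted genes was not tested.

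The 4 fitted members not chosen for their swings were set beside all 9527 genes at 10 CPM or more, whatever their abundance. The SD of log2 CPM across the 10 libraries had a median of 0.08 over those genes. It was 0.24 for PIGR (percentile 98.7), 0.17 for LCN2 (94.2), 0.14 for LYZ (88.5) and 0.12 for REG4 (81.6). Within letters the percentiles were 99.5 for PIGR, 93.1 for LCN2, 96.9 for LYZ and 81.8 for REG4. Members did not vary as a block. Pearson's r of log2 CPM over the 10 libraries, which share lines, letters and depth, was 0.79 for LCN2 with PIGR and 0.79 for REG4 with LYZ, and -0.70 for REG4 with PIGR.

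The genes with the pattern most like PLA2G2A over the 10 libraries, by Pearson's r of log2 CPM among 13035 genes at 1 CPM or more, were DEFA5 (r = 0.984), the HMG-box factor TOX (0.978), the sialyltransferase ST6GALNAC1 (0.975), the splicing factor PRPF19 (0.963) and the Rab11 effector RAB11FIP4 (0.962). These values carry the step between letters: for each gene the B libraries were above the A libraries, as for PLA2G2A, with DEFA5 at 2.06 to 4.61 CPM in B and 0.985 to 1.58 CPM in A, and ST6GALNAC1 at 159 to 181 CPM in B and 144 to 150 CPM in A. Those most like REG1A were MYCL, a MYC family factor (r = 0.916), the monooxygenase FMO4 (0.902), the translation factor subunit EIF3H (0.893), the Hippo coactivator WWTR1 (0.888) and the unnamed transcript AL121832.2 (0.876). REG1A held 0 to 70 counts per library, and log2 CPM used 0.5 added counts. Spearman's rho, which uses ranks alone, was 0.818, 0.794, 0.855, 0.903 and 0.915 for these genes in that order. Their range was narrow: MYCL ran from 47.1 to 55.4 CPM in guide libraries and from 55.4 to 58.4 CPM in NTC libraries, and WWTR1 from 15.1 to 17.7 CPM and 17.3 to 18.5 CPM in the same order. These genes were picked as the closest of many and over 10 libraries, so the values describe likeness only.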

How the data were processed

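Libraries were made from polyadenylated RNA with a kit that keeps no strand information, per the labels' protocols. The deposited file lists RSEM expected counts by gene, going by its name, and 7.12% of its values were not whole. Per the submitters' processing notes, the build was hg38, and the tools named are TopHat2 2.0.8, CASAVA 1.8.2 and FastQC 0.11.2, with no role or annotation stated. Positions come from GENCODE release 29, which 58597 of 58870 identifiers matched.

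Expected counts were rounded and tested with edgeR 4.0.16 in R 4.3.3 (quasi-likelihood, TMM, filterByExpr, two-sided). Counts of B and A were summed per line for guide against NTC lines. Each guide line, and NTC2 against NTC1, was compared in 1 fit of 10 libraries, and letters were compared with line as a term. Adjusted p is Benjamini-Hochberg over all genes tested, with a threshold of 0.05. SE was derived from the fold change and F. Log2 CPM used 0.5 added counts. The code was checked on simulated counts. DESeq2 1.42.0, other scalings and filters, a block on letter and left-out libraries and lines were alternatives. The comparisons of letters within guide lines and within NTC lines were added after the data had been seen.

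The members and lists were chosen with earlier results of these data known. Named genes were the 9 members, up to 4 called genes per list and comparison by smallest p (the most abundant where none was called), the 5 genes most like REG1A and PLA2G2A, the neighbours of REG1A, REG1B, REG3A and PLA2G2A, and RNASE1. PLA2G2D, XBP1 and CDX1 were named after their values were seen.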

Additional observations from a re-analysis of the deposited data

Results flagged for a closer look

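Within the 6 guide libraries PIGR in sg2 B (756 CPM) lay far from the others, with a gap to the nearest of 0.672 of the whole range, above the critical value for 6 samples. The next highest guide library held 581 CPM. In sg2 B, REG4 (95.3 CPM) and LYZ (27.2 CPM) were at their lowest over all 10 libraries. REG1A and PLA2G2A, chosen for their swings, were left out of this check. A total of 16 groups of values were examined, and chance flags about 1 in 20.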

How the results depend on the processing

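Counts of called genes moved with the setting. Guide against NTC lines gave 4 genes, 55 with DESeq2, 238 with no filter on low counts, 7 at a mean of 5 CPM or more, 11 with letter A alone, 10 without line sg1, 7 without sg2, 13 without sg3 and 29 without NTC1, and 1 to 12 leaving out each library. For sg1, sg2, sg3 and NTC2 against NTC1, DESeq2 gave 6, 4, 4 and 2 genes, and no filter 69, 95, 86 and 57. Leaving out each library gave 1 to 2 for sg1, 0 to 2 for sg2 and 0 to 1 for NTC2 against NTC1. Letter B against A gave 2642 genes with guide lines alone. With no filter PIGR passed in guide against NTC lines (0.27, edgeR adjusted p = 2.24e-16) and in sg2 (0.47, edgeR adjusted p = 6.87e-10), and LYZ in the letters (-0.11, edgeR adjusted p = 0.0391). The cause was not tested.

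Nothing in the labels pairs the libraries by letter. Deviations from line means correlated above 0.1 for same-lettered libraries in 3 of 10 pairs of lines over 16411 genes (r from 0.0337 to 0.147) and in 10 of 10 over 9527 genes at 10 CPM or more (0.482 to 0.779). With the letter as a replicate block 9 genes passed for guide against NTC lines, and 4, 2, 6 and 2 for sg1, sg2, sg3 and NTC2 against NTC1; REG1A was then at -2.94 and PLA2G2A at -0.16, and no member's call changed.

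Small values changed sign on leaving out 1 library, none of those tested being past the threshold. Such a fit leaves a line with 1 letter, so the step between letters enters its value. REG4 ran from -0.063 to 0.033 in guide against NTC lines (0.035 without line sg2), -0.061 to 0.076 in sg1, -0.295 to 0.022 in sg2 and -0.079 to 0.120 in NTC2 against NTC1. LCN2 ran from -0.012 to 0.265 in sg1 and -0.175 to 0.177 in NTC2 against NTC1. LYZ ran from -0.156 to 0.057 in sg1 and -0.111 to 0.056 in sg3, and PIGR from -0.085 to 0.354 in NTC2 against NTC1. PLA2G2A, which has no threshold, ran from -0.317 to 0.313 in sg3 and from -0.122 to 0.490 in NTC2 against NTC1. With the letter as a replicate block and all libraries kept, it was at 0.026 and 0.162 in the same order. PLA2G2A in the letters stayed between 0.52 and 0.56 under every alternative run. Depth limits REG1A, at 0 to 70 counts per library, and leaves REG1B, REG3A and DMBT1 untested.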
